A study of Mus musculus with 24 samples.

Results

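The change of a hydrogel's effect across the days of wound healing was described in diabetic mice, over all genes measured. An effect here is the log2 difference between hydrogel-treated and control wounds at 1 day, and the quantity of interest is how far that effect at 1 day differed from the effect at another. The libraries were chosen by their titles: all 18 wound libraries of the 24 in the series, the other 6 being from a cultured macrophage line and not used here. Of 52976 gene symbols counted, 17592 passed a filter on low counts and were tested. The wounds fell into 6 groups of 3 libraries. Control wounds (label Diabetic control) and wounds treated with the Fmoc-KYF-AgNCs-3S1C-Hyd2 hydrogel were each sampled at days 1, 7 and 14, and all were wound tissue of diabetic mice. The series title describes the gel as a peptide hydrogel with silver nanoclusters and a hydrogenase that tolerates oxygen, meant to give off hydrogen under light. The labels used here give neither strain, sex and age nor how diabetes was induced, and do not say whether control wounds received light or a gel without the enzyme. The titles call the control arm Dia and the treated arm TEOA, without explaining the second name.

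Skin repair is usually described as overlapping phases. Neutrophils and then monocyte-derived macrophages enter first and release cytokines and chemokines. Fibroblasts next deposit collagen-rich granulation tissue while keratinocytes migrate from the wound edge to close the surface, and matrix enzymes later remodel the scar. In diabetic wounds the inflammatory phase is known to be prolonged. A comparison of treatment at a fixed day mixes the action of the treatment with the phase each wound has reached. The difference of effects between days asks whether the arms separated in the same way throughout.

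Library totals ran from 12.4 M to 27.1 M counted read pairs. The labels do not say whether replicates are separate animals. The p-values therefore refer to the variation among the libraries as deposited, part or all of which may be technical. This variation was uneven, with a coefficient of variation of 55.4% between control libraries at day 1, 4.69% at day 7 and 52.4% at day 14, while hydrogel libraries had 43.8%, 11.2% and 14.9% in the same order. Day 7 controls differed by little more than counting noise: the median chi-square per gene between replicates was 0.638 to 0.787, where counting noise alone gives 0.455. Hydrogel libraries of day 7 gave 1.23 to 2.13, hydrogel libraries of day 14 gave 1.78 to 5.04 and the other groups 6.16 to 29.6. Control day 14 replicate 1 lay at -78 and 66.9 on the first 2 principal components, beside the day 7 controls (-85.1 to -87.5 and 75.2 to 76.8) and away from the other day 14 controls (50 and 79.3 on the first). Control day 1 replicate 1 stood apart from its group too: its skeletal muscle genes summed to 8505 CPM (counts per M read pairs of the library), while its group mates had 148834 and 204508 CPM, and its adipocyte genes to 66920 CPM against 7727 and 11078 CPM. In bulk tissue, fewer cells of a type and less RNA per cell cannot be told apart.

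The hydrogel effect changed between days for 2785 genes (15.8% of those tested) in an interaction test over the 3 days (edgeR quasi-likelihood F test, Benjamini-Hochberg adjusted p under 0.05). Comparing day 7 with day 1, the effect was higher at day 7 for 1030 genes (5.85%) and lower for 1245 (7.08%). Between days 7 and 14 it was higher at day 14 for 122 genes (0.693%) and lower for 180 (1.02%). From day 1 to day 14 it was higher at day 14 for 470 genes (2.67%) and lower for 1374 (7.81%). Counts of list members below are to be read beside these shares of all genes. The median difference over all genes was -0.06, -0.02 and 0 on the log2 scale in the 3 comparisons. The 3 differences share libraries and are given side by side rather than as independent results.

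An effect of one sign at day 1 and the other sign at both later days was the most frequent pattern among the 2785 genes. Of them, 1129 (40.5%) were higher in hydrogel wounds at day 1 and lower at days 7 and 14, a pattern held by 16.1% of all genes tested. Another 652 (23.4%, against 15.1% of all genes) were lower at day 1 and higher at both later days. An effect of the same sign at all 3 days was seen for 91 genes (higher) and 107 (lower), 3.27% and 3.84% of the 2785 against 20.3% and 17% of all genes. These shares are descriptions, because a gene whose effect switches sign has a larger difference between days and passes more easily. Across the 17592 genes, the effects at days 7 and 14, which share no library, had a Pearson r of 0.47 (Spearman rho 0.51). The effect at day 1 had an r of 0.08 with that at day 7 and of -0.06 with that at day 14 (rho 0.09 and 0.01). Genes are not independent replicates, and no p is given. Control day 14 replicate 1, which lay beside the day 7 controls, is part of the day 14 effect, and r was not computed without it. The largest effect fell on day 7 for 40.9% of the 2785 genes, on day 14 for 34.5% and on day 1 for 24.6%, near the 38.2%, 32.4% and 29.4% of all genes.

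**Figure D1:**
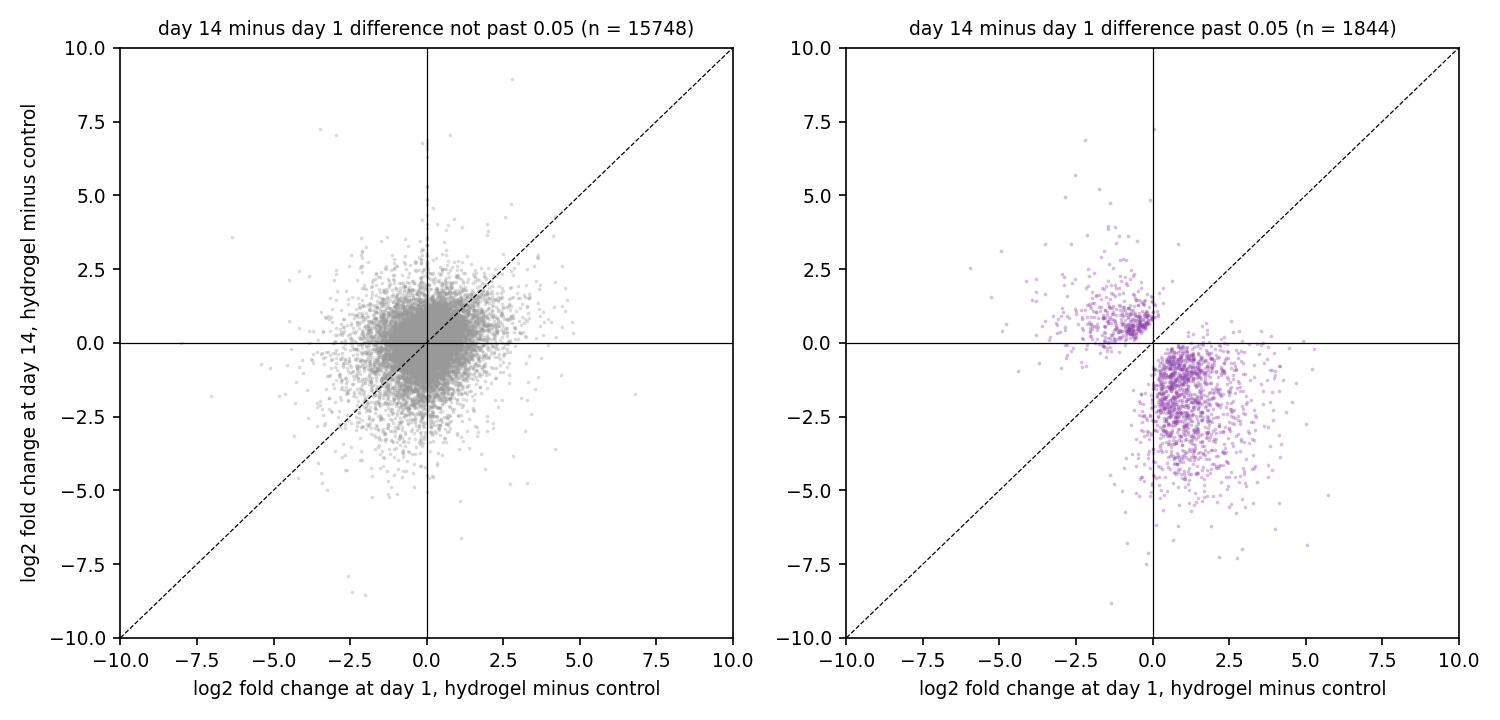
Log2 fold change of hydrogel against control wounds at day 1 (horizontal axis) and day 14 (vertical axis), 1 point per gene, with genes not past 0.05 for the day 14 minus day 1 difference on the left and the 1844 genes past it on the right. The dashed line marks equal effects. The genes past the threshold lie mainly in the quadrants of opposite sign, with 1374 below the line and 470 above it.

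How many genes passed depended on the day 7 libraries. When the 3 day 7 libraries of an arm were added up to a single one, 26 genes passed over the 3 days, 0 passed for day 7 minus day 1 (1638 at an unadjusted p under 0.05, edgeR), 0 for day 14 minus day 7 (657 unadjusted), and 495 for day 14 minus day 1 (50 higher, 445 lower). All 495 were among the 1844 of the model as reported. Every call below for a difference that involves day 7 is therefore lost if the day 7 replicates are taken as 1 sample per group, and this is not repeated at each gene. All 6 groups share 1 estimate of the spread per gene, so standard errors and p-values for day 14 minus day 1 also draw on the day 7 libraries. With the 12 libraries of days 1 and 14 alone in the model, 408 genes passed for day 14 minus day 1, 357 of them lower. Leaving out single libraries also moved the counts. The count over 3 days became 5285 without control day 1 replicate 1, 1622 to 1697 without any of the 3 day 7 controls, 1828 and 1817 without hydrogel day 7 replicate 1 or 2, and 1700 and 1710 without hydrogel day 14 replicate 2 or 3. For day 7 minus day 1 it was 4725 without control day 1 replicate 1, 3511 without control day 14 replicate 1, 1436 without control day 1 replicate 3 and 1306 to 1469 without any of the 6 day 7 libraries. For day 14 minus day 1 it was 2842 without control day 1 replicate 1, 3005 without control day 14 replicate 3, and 1011 and 917 without hydrogel day 14 replicate 2 or 3. The day 14 minus day 7 count of 302 was the least steady. It was 66 to 138 without any of the 6 day 7 libraries, control day 14 replicate 2 or any hydrogel day 14 library, and it was 1820, 562, 1108 and 456 without control day 1 replicate 1, control day 1 replicate 3, control day 14 replicate 1 or hydrogel day 1 replicate 1.

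**Figure D2:**
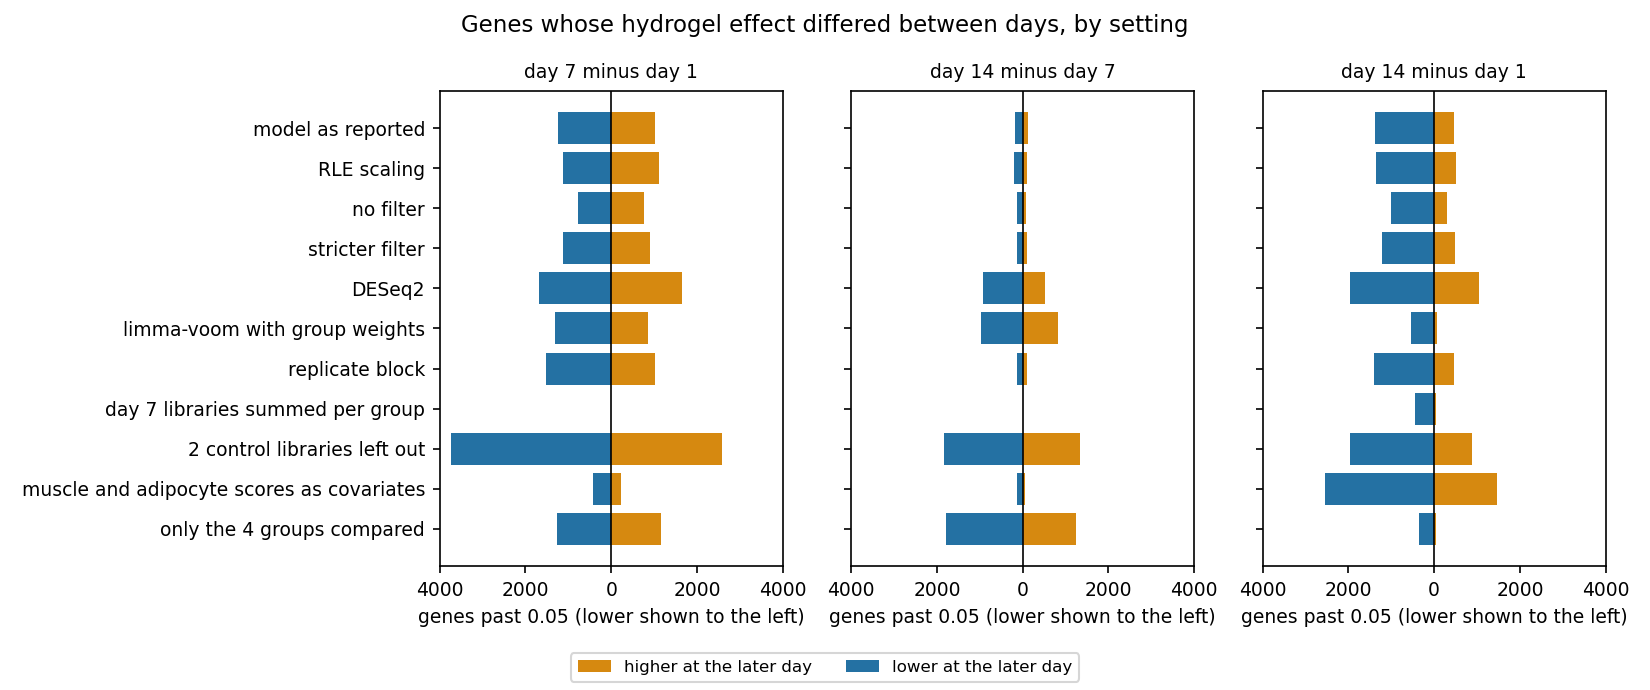
Genes past an adjusted p of 0.05 for each difference between days (panels), with genes higher at the later day drawn to the right and lower ones to the left. Shown are the model as reported and each alternative other than leaving out 1 library at a time. No bar is seen for the differences that involve day 7 once its libraries are summed, whereas 495 genes remain for day 14 minus day 1.

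Genes of neutrophils and of the acute phase gave the largest falls of the effect from day 1 to day 14. Saa3, an acute-phase serum amyloid (chromosome 7, 46711998 to 46715700, minus strand, GRCm38), stood at 62.3, 13.1 and 24.6 CPM in day 1 controls and at 1514, 1084 and 734.6 CPM in day 1 hydrogel wounds. At day 7 the order was turned, with 1006, 1004 and 1024 CPM in controls and 40.6, 26.1 and 65.8 CPM with hydrogel. Day 14 controls were spread over 925, 93.1 and 5.18 CPM, all above the 3.91, 2.71 and 2.17 CPM of hydrogel wounds. The arms did not overlap at any day, and the hydrogel arm was the upper one only at day 1. Its log2 effect was 5.06, -4.52 and -6.86 at days 1, 7 and 14, a difference of -11.92 ± 1.77 (SE) between days 14 and 1 (adjusted p = 0.0012) and of -9.57 ± 1.67 between days 7 and 1 (adjusted p = 0.0035). The liver-type amyloids Saa1 and Saa2, whose near-identical sequences make the split of reads between them uncertain, had differences of -8.22 ± 1.09 and -7.91 ± 1.17 between days 7 and 1 (adjusted p = 0.00086 and 0.0016).

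Csf3r, the receptor for granulocyte colony-stimulating factor that marks neutrophils (chromosome 4, 126024550 to 126044440), stood at 9.04, 2.12 and 2.54 CPM in day 1 controls against 35.1, 93.7 and 18 CPM with hydrogel. At day 14 it stood at 28, 13.4 and 6.05 CPM in controls against 0.671, 0.686 and 0.414 CPM with hydrogel. The groups were apart at each day, and in opposite order at days 1 and 14. Its difference between days 14 and 1 was -8.14 ± 1.01 (adjusted p = 0.00052). Of 16 neutrophil genes tested, 11 fell and 0 rose in the effect from day 1 to day 14, with a list median of -5.31 beside 0 for all genes. Without single libraries the count was 10 to 13, with the day 7 libraries summed it was 8, and with days 1 and 14 alone 7. In limma-voom with group weights it was 6. From day 1 to day 7, 8 of the 16 were lower and 1 higher (median -2.84). The list's median effect ran from 2.1 at day 1 through -1.32 to -3.77. Within arms, the median change from day 1 to day 14 was 0.42 in controls and -5.27 in hydrogel wounds. S100a8, a calcium-binding protein abundant in neutrophils and also made by keratinocytes, had a difference of -2.87 ± 1.03 between days 14 and 1 that did not pass (adjusted p = 0.088).

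Slfn4, a myeloid gene of the Schlafen family, was among the largest falls as well, at -8.02 ± 0.96 between days 14 and 1 (adjusted p = 0.00044). It stood at 2.58 to 8.29 CPM in day 1 controls against 30.3 to 190.3 CPM with hydrogel, and at 11.2 to 19.7 CPM in day 14 controls against 0.552 to 1.34 CPM. Ms4a4c, a tetraspanning membrane gene of leukocytes, had a difference of -9.1 ± 1.03 between days 7 and 1 (adjusted p = 0.00032).

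Macrophage genes moved in the same direction as a nearly complete list. Of 20 tested, 18 fell in the effect from day 1 to day 14 and 0 rose, with a median of -5.02. The count was 16 to 18 without single libraries, 12 with the day 7 libraries summed and 11 with days 1 and 14 alone. From day 1 to day 7, 13 were lower (median -3.33). Omitting control day 1 replicate 2 or 3 or hydrogel day 7 replicate 1 left 8, and omitting hydrogel day 7 replicate 2 left 7. None of the 20 passed between days 7 and 14 in the model as reported. In other edgeR fits, 3 passed without control day 1 replicate 1 or with only the 4 groups compared. When scores for muscle and fat tissue were added as covariates, 4 passed. In controls the list rose by a median of 2.62 from day 1 to day 7, and in hydrogel wounds its median changed by -1.13 over those days and by -3.34 over the whole course.

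Fcgr1, the high-affinity receptor for immunoglobulin G (chromosome 3, 96282909 to 96293969), gave a difference of -6.99 ± 0.92 between days 14 and 1 (adjusted p = 0.00076). Its level was 1.01 to 7.75 CPM in day 1 controls and 15.1 to 38.9 CPM with hydrogel, and 6.37 to 17.7 against 0.587 to 0.868 CPM at day 14. Ms4a7, a macrophage gene of the same membrane family as Ms4a4c, stood at 4.08, 0.682 and 0.444 CPM in day 1 controls and 11.7, 5 and 7.45 CPM with hydrogel. At day 14 it stood at 53.7, 16.3 and 9.21 CPM against 1.18, 0.561 and 0.449 CPM. The 2 arms did not overlap at any of the 3 days. Its difference was -7.37 ± 1.07 between days 14 and 1 (adjusted p = 0.001). Cd14, a co-receptor for bacterial lipopolysaccharide, and Csf1r, the receptor for the macrophage growth factor, had differences of -4.87 ± 0.74 and -4.27 ± 0.76 (adjusted p = 0.0014 and 0.0031). Adgre1, which encodes the macrophage marker F4/80, differed by -5.52 ± 1.16 (adjusted p = 0.0074), and this call was lost with days 1 and 14 alone or with day 7 summed.

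**Figure D3:**
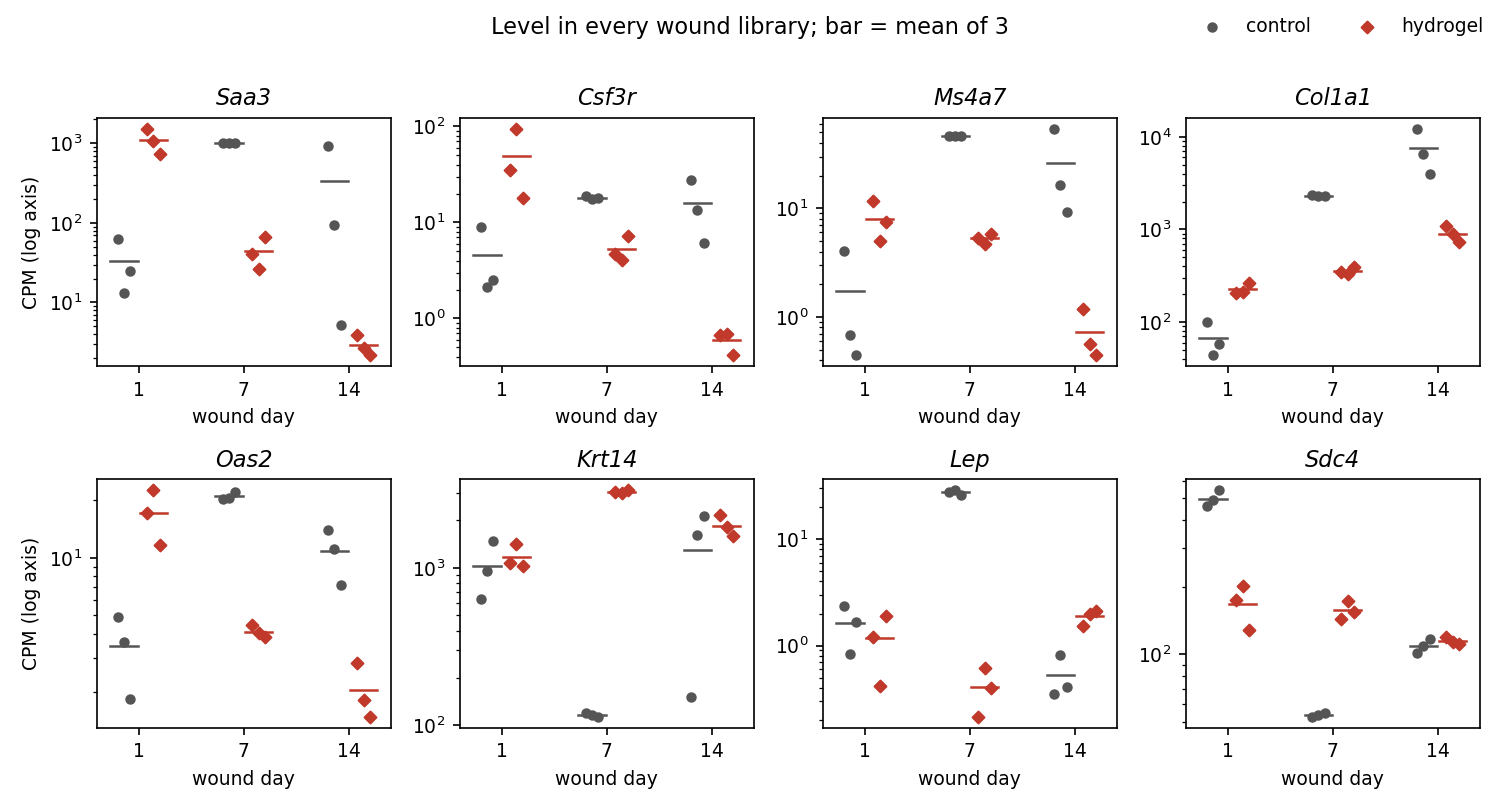
Level of 8 genes in every wound library (CPM, log axis) by wound day, with controls as grey circles and hydrogel wounds as red diamonds and a bar at each mean of 3. Saa3, Csf3r, Ms4a7, Col1a1 and Oas2 lie higher with hydrogel at day 1 and lower at days 7 and 14, whereas Sdc4 does the reverse between days 1 and 7 and Lep is high only in day 7 controls.

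Signals that recruit or activate these cells followed in part. Of 12 inflammatory cytokines tested, 7 fell in the effect from day 1 to day 14 and 0 rose (median -3.03, 5 to 7 without single libraries, 4 with day 7 summed and 3 with days 1 and 14 alone). Il33, an alarmin released by damaged epithelial and stromal cells, differed by -5.41 ± 0.86 (adjusted p = 0.0018). It stood at 8.26 to 20.1 CPM in day 1 controls and at 25.7 to 160.4 CPM with hydrogel, and at 15.7 to 71.3 against 3.8 to 6.91 CPM at day 14. Il1b, a central cytokine of early inflammation, stood at 5.16, 2.05 and 3.42 CPM in day 1 controls against 75.7, 19.5 and 12.8 CPM. By day 14 the control wounds had 4.18, 13 and 3.66 CPM and the hydrogel wounds 1.07, 1.22 and 1.55 CPM. The difference was -5.77 ± 0.99 (adjusted p = 0.0026), and it was lost in limma-voom with group weights.

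Chemokines that attract neutrophils behaved less uniformly. Cxcl2 stood above controls at day 1 (10.1 to 34.3 against 1.29 to 9.72 CPM), overlapped them at day 7 and lay below them at day 14 (0.118 CPM or less against 1.05 to 5.23 CPM), a difference of -7.48 ± 1.06 between days 14 and 1 (adjusted p = 0.00099) whose size is loose at so low a level. Cxcl1 was higher with hydrogel only at day 7, at 3.19 to 7.82 against 0.559 to 1.42 CPM, and differed by -5.17 ± 0.79 between days 14 and 7 (adjusted p = 0.0092). Of 12 CC chemokines tested, which draw monocytes and lymphocytes, 7 fell from day 1 to day 14 (median -4.36). Omitting control day 1 replicate 1 gave 11, omitting control day 14 replicate 1 or hydrogel day 14 replicate 2 gave 4, omitting hydrogel day 14 replicate 3 gave 3, and 1 passed both with day 7 summed and with days 1 and 14 alone. Ccl8, a monocyte attractant, passed in each of these, with a difference of -7.17 ± 1.18 (adjusted p = 0.0022).

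Interferon-induced genes also had a lower effect after day 1. Of 20 genes of the type I interferon response, 8 were lower at day 7 than at day 1 (median -1.88) and 7 were lower at day 14 than at day 1 (median -2.56), with 0 higher in either. At day 14, omitting control day 1 replicate 1 gave 18, omitting either of the hydrogel day 14 replicates 2 and 3 gave 4, and 3 passed with day 7 summed or with days 1 and 14 alone. It was 13 in DESeq2 and 20 when scores for muscle and fat tissue were added as covariates. The day 7 count was 17 without control day 1 replicate 1 and 4 or 5 without control day 1 replicate 2 or 3, hydrogel day 1 replicate 1 or any day 7 library. Oas2, an oligoadenylate synthetase that senses double-stranded RNA (chromosome 5, 120730334 to 120749853, minus strand), stood at 4.89, 3.64 and 1.84 CPM in day 1 controls and 17.1, 22.5 and 11.6 CPM with hydrogel. At day 7 the values were 20.2, 20.6 and 22 CPM against 4.45, 4.03 and 3.88 CPM, and at day 14 they were 14, 11.2 and 7.24 CPM against 2.84, 1.81 and 1.49 CPM. The arms were apart at every day and crossed between days 1 and 7. The differences from day 1 were -4.65 ± 0.52 at day 7 and -4.7 ± 0.52 at day 14 (adjusted p = 0.00032 and 0.0003). Its neighbour Oas3 differed by -6.52 ± 1.1 between days 14 and 1, Oasl2 by -4.41 ± 0.82 and Oasl1 by -4.08 ± 0.96 (adjusted p = 0.0024, 0.0039 and 0.014). Irf7, a transcription factor of the response, passed only between days 7 and 1, at -4.28 ± 1.19 (adjusted p = 0.028), a call lost in 11 of the alternatives.

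Genes of this response are typically switched on through the interferon-stimulated response element, so the start regions of the listed genes were searched for its core, GAAA and any 2 bases and GAAA again, on both strands, matches being allowed to overlap. The windows, from RefSeq on GRCm38.p6, run from 250 bases before to 50 after each start. Of the 20 genes, 15 had an entry and 10 of these held the letters, which occur in 3.44% of all 32851 windows. The 4 matching genes that passed at least 1 difference are shown, a choice made after their values were seen. Each line gives bases 5′ to 3′ on the gene's strand, with the matched letters in capitals and, where the match is on the other strand, as their reverse complement. Lines stop shortly after the first match. Isg15 has 3 matches, and the last of them runs past the end of its line.
Oas3, chr5:120777715-120777744, minus strand: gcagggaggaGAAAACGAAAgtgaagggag
Oas1a, chr5:120907526-120907555, minus strand: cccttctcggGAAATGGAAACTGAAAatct
Isg15, chr4:156200877-156200906, minus strand: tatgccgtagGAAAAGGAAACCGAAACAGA
Ddx58, chr4:40239804-40239833, minus strand: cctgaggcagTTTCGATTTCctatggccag
The match starts 75 bases before the start site in Oas3, 20 before in Oas1a and 78 before in Isg15, and at base 3 after it in Ddx58. Of the 10 genes with the letters, 3 passed between days 7 and 1 (median difference -1.70), and of the 5 genes with an entry but no match 4 did (median -3.91). No match says only that the letters are not in this window.

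Collagen and matrix genes made the largest list with a common direction. Of 30 collagen and matrix assembly genes, 21 fell in the effect from day 1 to day 14 and 0 rose, with a median of -3.21. The count was 18 to 29 without single libraries, 16 with day 7 summed and 15 with days 1 and 14 alone. From day 1 to day 7, 19 were lower (median -2.5), and 0 passed between days 7 and 14 in the model as reported (median -0.76). Between those days 5 passed with control day 1 replicate 1 and control day 14 replicate 1 both left out. When scores for muscle and fat tissue were added as covariates, 6 passed between days 7 and 1 (median -1.56) and 8 between days 14 and 7 (median -2.54). The median effect was 0.41 at day 1, -2.09 at day 7 and -2.71 at day 14. The arms differed in what moved: over the 2 weeks the list rose by a median of 3.12 in controls and changed by 0.17 in hydrogel wounds. Col1a1, which encodes a chain of fibrillar collagen I (chromosome 11, 94936224 to 94953042), stood at 99.2, 43.9 and 57.3 CPM in day 1 controls and 208, 209.4 and 267 CPM with hydrogel. It stood at 2369, 2297 and 2300 CPM in day 7 controls against 347.9, 332.8 and 397.3 CPM, and at 12120, 6546 and 4003 CPM in day 14 controls against 1085, 883.4 and 731.4 CPM. Both arms rose with time, from a higher start but more slowly with hydrogel, and their libraries did not overlap on any day. The difference was -4.84 ± 0.55 between days 14 and 1 (adjusted p = 0.00031).

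Col3a1, the collagen of early granulation tissue, differed by -6.16 ± 0.96 (adjusted p = 0.0016) and stayed at 479.7 to 793 CPM in all 9 hydrogel libraries, while controls went from 88.4 to 497.5 CPM at day 1 to 4681 to 26260 CPM at day 14. Loxl3 and Loxl2, lysyl oxidase-like enzymes that cross-link collagen, differed by -3.98 ± 0.38 and -3.07 ± 0.44 (adjusted p = 0.00014 and 0.00099). Loxl3 had 2.73 to 4.21 CPM in day 1 controls and 8.94 to 12.7 CPM with hydrogel, and 19.6 to 39.5 against 5.25 to 5.62 CPM at day 14. Lum, a small proteoglycan that organises collagen fibrils, differed by -5.51 ± 0.65 (adjusted p = 0.00042). Col8a1, a short-chain collagen of vessels and healing tissue, was among the 12 genes of lowest p over the 3 days, with a difference of -5.33 ± 0.52 between days 14 and 1 (adjusted p = 0.00014). It stood at 2.85 to 3.19 CPM in day 1 controls and 10.9 to 15.4 CPM with hydrogel, and at 15.6 to 65 against 3.56 to 4.89 CPM at day 14. Calls for all of these genes stood under every alternative for day 14 minus day 1.

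Fibroblast genes followed the matrix. Of 18 tested, 10 fell from day 1 to day 14 and 0 rose (median -2.43, 8 to 13 without single libraries, 6 with day 7 summed). With days 1 and 14 alone, 3 passed. Cthrc1, a secreted protein of activated fibroblasts, differed by -5.7 ± 0.81 (adjusted p = 0.00099), at 78.1 to 333.7 CPM in day 14 controls against 5.87 to 8.61 CPM with hydrogel. Mfap4, a microfibril protein, differed by -3.32 ± 0.5 between days 7 and 1 (adjusted p = 0.0019). Of 16 matrix metalloproteinases and their inhibitors, which cut and protect the matrix, 10 fell from day 1 to day 14 and 0 rose (median -2.81, 9 to 11 without single libraries, 6 with day 7 summed and 5 with days 1 and 14 alone). Mmp13, a collagenase, stood at 0.0634 to 0.152 CPM in day 1 controls and at 0.362 to 1.21 CPM with hydrogel. At day 14 it stood at 7.42 to 19.4 against 0.345 to 0.711 CPM. Its difference was -7.4 ± 0.89 (adjusted p = 0.00044), lost in limma-voom with group weights. Timp1, an inhibitor of these enzymes, differed by -4.88 ± 0.71 (adjusted p = 0.001).

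The plot of list medians by day sets these groups side by side.

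**Figure D4:**
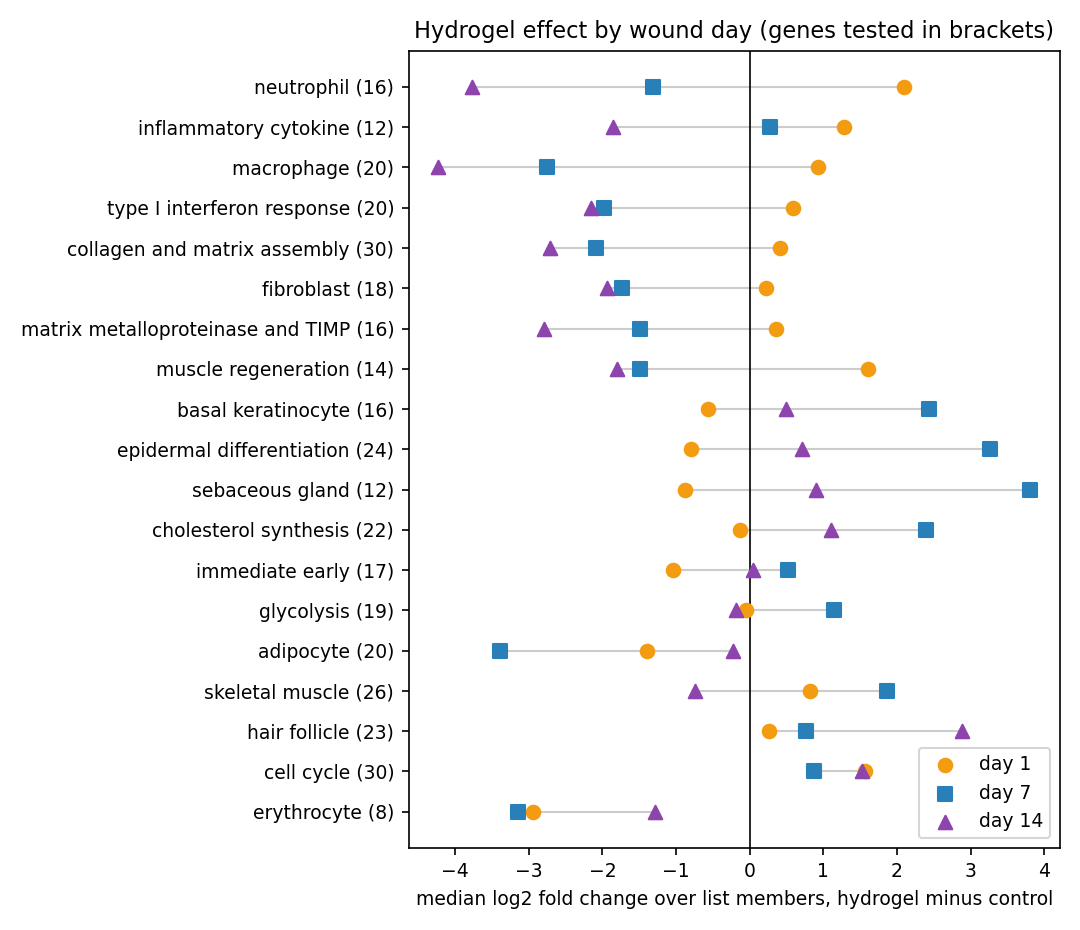
Median log2 fold change of hydrogel against control wounds over the tested members of 19 gene lists at day 1 (circles), day 7 (squares) and day 14 (triangles), with the number of genes in brackets. The neutrophil, macrophage, cytokine, interferon and collagen lists run from right to left with time, keratinocyte, sebaceous and cholesterol lists peak at day 7, and the cell cycle and erythrocyte lists keep 1 sign throughout.

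Epidermal genes moved the other way between days 1 and 7. Of 16 basal keratinocyte genes, 10 rose in the effect from day 1 to day 7 and 0 fell (median 3.17, 9 to 12 without single libraries). The median effect was -0.56 at day 1, 2.44 at day 7 and 0.5 at day 14. Krt14, the basal keratin (chromosome 11, 100203162 to 100207548, minus strand), stood at 635.5, 960.6 and 1485 CPM in day 1 controls and 1068, 1419 and 1032 CPM with hydrogel, which overlap. At day 7 controls had 119.9, 115.9 and 114 CPM and hydrogel wounds 3047, 2997 and 3101 CPM. At day 14 the controls were split, with 151.7 CPM in replicate 1 and 1613 and 2139 CPM in the others, around the 2161, 1817 and 1590 CPM of hydrogel wounds. The difference was 4.52 ± 0.86 between days 7 and 1 and -4.2 ± 0.85 between days 14 and 7 (adjusted p = 0.0051 and 0.024). It did not pass between days 14 and 1 (0.32 ± 0.82, adjusted p = 0.84). The low keratin level was thus a feature of the day 7 controls and of control day 14 replicate 1.

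Genes of the upper, barrier-forming epidermis did likewise. Of 24 tested, 14 rose in the effect from day 1 to day 7 (median 3.95), 9 without control day 1 replicate 3, control day 7 replicate 1 or 2, hydrogel day 1 replicate 3 or hydrogel day 7 replicate 2. Aloxe3, a lipoxygenase of the skin barrier, stood below controls at day 1 (1.29 to 6 against 23.4 to 44.4 CPM) and above them at day 7 (15.7 to 16.3 against 0.474 to 0.818 CPM), a difference of 7.96 ± 1.01 (adjusted p = 0.0008). Casp14, a caspase of cornifying cells, differed by 6.29 ± 0.94 (adjusted p = 0.0016). Of 19 wound-edge keratinocyte genes 7 rose and 1 fell from day 1 to day 7. The gene that fell was Slpi, a secreted protease inhibitor also made by leukocytes, which differed by -3.11 ± 0.75 between days 7 and 1 and by -5.28 ± 0.78 between days 14 and 1 (adjusted p = 0.015 and 0.0012). The rise in 7 was not steady, at 2 to 5 past in all without control day 1 replicate 2 or 3, any of the 3 day 7 controls, hydrogel day 1 replicate 3 or hydrogel day 7 replicate 1 or 3. Krt6a, the keratin of activated keratinocytes, and Krt10, the suprabasal keratin, passed no difference between days (0.75 ± 0.92 and 1.92 ± 1.13 between days 7 and 1, adjusted p = 0.64 and 0.29).

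Genes of the sebaceous glands were higher in the effect at day 7 as well. Of 12 sebaceous gland genes, 8 were higher at day 7 than at day 1 (median 4.38). Only 2 to 5 passed without control day 1 replicate 3, any of the 6 day 7 libraries, hydrogel day 1 replicate 1 or 2, or hydrogel day 14 replicate 2. Scd3, a fatty acid desaturase of sebocytes (chromosome 19, 44203269 to 44244016), stood at 6.92, 5.28 and 6 CPM in day 7 controls and 869.3, 892.1 and 834.8 CPM with hydrogel. At day 14 the controls had 3.08, 411.4 and 327.5 CPM, with replicate 1 again beside the day 7 controls. The difference between days 7 and 1 was 7.8 ± 1.71 (adjusted p = 0.0099). Pnpla5, a lipase-family gene, had the largest rise among genes with all 4 group means at 0.5 CPM or more and the highest at 5 CPM or more, at 8.8 ± 2.11 (adjusted p = 0.015), and went from 0.628 to 1.26 CPM in day 7 controls to 138.5 to 164.7 CPM with hydrogel. Serpina3b and Serpina3j, protease inhibitors of a family with near-identical copies, differed by 8.29 ± 2.07 and 8.07 ± 2.14 (adjusted p = 0.018 and 0.023). The calls for Pnpla5 and both Serpina3 genes were lost without control day 1 replicate 3 and in limma-voom with group weights. Of 28 alternatives, 5 lost the call for Pnpla5, 7 for Serpina3b and 9 for Serpina3j. Among them were no filter, the muscle and fat scores and, for both Serpina3 genes, the omission of control day 7 replicate 2 or 3. Pmel, a scaffold protein of pigment granules, differed by 7.34 ± 1.34 between days 7 and 1 (adjusted p = 0.0044). It was 1 of 3 melanocyte genes past of 11 tested, beside 5.85% of all genes. The count was 6 without control day 14 replicate 1 and 0 in limma-voom with group weights or with the covariate scores of muscle and fat.

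Cholesterol synthesis genes, which keratinocytes and sebocytes use heavily, were higher at day 7 than at day 1 for 10 of 22 (median 2.17, 7 to 13 without single libraries), with 0 lower. Sqle, the squalene epoxidase, differed by 4.54 ± 0.88 and Hmgcs1, the synthase at the head of the pathway, by 3.51 ± 0.69 (adjusted p = 0.0056 and 0.0061). Hmgcs1 stood at 62 to 66.2 CPM in day 7 controls and at 452.3 to 529.8 CPM with hydrogel, beside 426.9 to 461.7 CPM with hydrogel at day 14. Acsbg1, an acyl-CoA synthetase, and Fgfbp1, a binding protein that releases fibroblast growth factors, had differences of -5.25 ± 0.94 and -5.29 ± 1.1 between days 14 and 7 (adjusted p = 0.014 and 0.027). Fcgbp, a mucin-like secreted protein, differed by -6.12 ± 1.11 (adjusted p = 0.015), a call lost in 6 of the alternatives. Once scores for muscle and fat tissue (mean log2 levels of the 2 lists) entered the model, the rises from day 1 to day 7 passed for 0 of 16 basal keratinocyte, 3 of 24 barrier and 1 of 22 cholesterol genes. The list medians went to 1.54 for basal keratinocyte and 1.46 for barrier genes, below the values as reported, and to 2.81 for cholesterol genes, above it.

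Those scores moved with the groups. Summed skeletal muscle genes took 46481 to 47589 CPM in day 7 controls and 140154 to 154915 with hydrogel, against 42863 to 69987 and 25321 to 43904 at day 14. No gene of that list was at 0 in any group. Of its 26 genes 3 fell in the effect from day 1 to day 14 (median -1.6), beside 7.81% of all genes. The count was 1 with day 7 summed and 0 with days 1 and 14 alone, and with the muscle and fat scores as covariates the median changed sign, to 0.72. Among the 3 was Tnnc1, a troponin of slow muscle and heart (-5.97 ± 1.2, adjusted p = 0.0059), whose call was lost with days 1 and 14 alone. Myh4, the myosin of fast fibres, did not pass (-1.49 ± 1.13, adjusted p = 0.42). Between days 14 and 7 the skeletal muscle list had a median of -2.61, with 0 of its 26 differences above 0. None passed there as reported or with the muscle and fat scores as covariates (median 0.24). However, 19 passed without control day 1 replicate 1, 23 with only the 4 groups compared, 12 in limma-voom with group weights and 11 in DESeq2. Genes of muscle regeneration are expressed by new, fusing fibres. Of 14 tested, 8 fell from day 1 to day 14 (median -3.67), 5 without hydrogel day 14 replicate 2 or 3, and 3 both with day 7 summed and with days 1 and 14 alone. Mymx and Mymk, the fusion proteins myomixer and myomaker, differed by -5.93 ± 1.04 and -6.95 ± 1.3 (adjusted p = 0.0029 and 0.0041). Mymx stood at 12 to 13.7 CPM in day 7 controls and 0.448 to 1.58 CPM with hydrogel, and at 0.0679 to 1.63 CPM in all day 1 wounds.

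Several fat genes had a higher effect at day 14 than at day 7. Lep, the adipocyte hormone leptin (chromosome 6, 29060220 to 29073877), stood at 27.7, 28.7 and 26 CPM in day 7 controls and at 0.215 to 2.38 CPM in every other wound library. Hydrogel wounds were below controls at day 7 (0.215, 0.616 and 0.401 CPM) and above them at day 14 (1.54, 2 and 2.11 against 0.348, 0.814 and 0.412 CPM). The difference was 7.82 ± 0.76 between days 14 and 7 (adjusted p = 0.00041). Adrb3, the adrenergic receptor of fat (119.7 to 122.3 CPM in day 7 controls, 1.36 to 1.94 CPM with hydrogel), differed by 7.69 ± 1.27 and Thrsp, a regulator of lipogenesis, by 6.68 ± 1.21 (adjusted p = 0.011 and 0.014). Lgals12, a galectin of lipid droplets, differed by 5.9 ± 0.99, Wfdc21, a small secreted protein, by 5.72 ± 1.19 and Plin1, the lipid droplet coat protein, by 5.54 ± 1.11 (adjusted p = 0.011, 0.027 and 0.023). The Plin1 call was lost in 12 of 28 alternatives, with differences from 0.84 to 6.21, among them the omission of any 1 of the 6 day 7 libraries. Of 20 adipocyte genes, 5 rose from day 7 to day 14 (median 3.36), beside 0.693% of all genes. Omitting control day 1 replicate 1 gave 15, omitting control day 1 replicate 3 gave 12, omitting control day 14 replicate 1 gave 11, and 1 to 3 passed without any of the 6 day 7 libraries, control day 14 replicate 2 or hydrogel day 14 replicate 2 or 3. With the muscle and fat scores as covariates 1 of the 20 passed and the median was -0.34, the fat score being made from this same list. In that setting the calls for Adrb3, Thrsp, Lgals12 and Plin1 were lost and the Lep call stood. Summed adipocyte genes took 35372 to 36367 CPM in day 7 controls and 1999 to 3401 in day 7 and day 14 hydrogel wounds, beside 2096 to 3341 in day 14 controls. Fabp4, the fatty acid carrier of adipocytes, did not pass (3.76 ± 1.07, adjusted p = 0.08).

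Igfbp3, a carrier of insulin-like growth factors, turned direction at each interval. It stood below controls at day 1 (42.5 to 57.8 against 266.1 to 362.3 CPM), above them at day 7 (450 to 456.8 against 100 to 108.1 CPM) and below them at day 14 (26.6 to 45.3 against 120 to 1047 CPM). The differences were 4.79 ± 0.74 and -5.91 ± 0.76 (adjusted p = 0.002 and 0.0027). Pdk4, a kinase that restrains glucose oxidation, differed by -5.28 ± 1.18 between days 14 and 7 (adjusted p = 0.037), a call lost in 14 of the alternatives. Glycolysis genes rose in the effect from day 1 to day 7 for 5 of 19 (median 1.36), beside 5.85% of all genes. Without control day 1 replicate 1 the count was 15. Slc2a1, a glucose transporter, differed by 1.93 ± 0.38 between days 7 and 1 and by -2.09 ± 0.38 between days 14 and 7 (adjusted p = 0.0059 and 0.014), and Hk2, a hexokinase, by -3.07 ± 0.61 between days 14 and 7 (adjusted p = 0.023). Between days 14 and 7 the Slc2a1 call was lost in 6 alternatives and the Hk2 call in 10.

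Several signalling genes were among the 12 of lowest p over the 3 days. Sdc4, a cell-surface proteoglycan of adhesion sites (chromosome 2, 164424247 to 164443887, minus strand), stood at 460.7, 490.8 and 542 CPM in day 1 controls against 175.1, 203 and 128.9 CPM with hydrogel. At day 7 it stood at 52.7, 53.6 and 54.5 against 144.6, 173.5 and 154.8 CPM, and at day 14 the arms overlapped at 101.4 to 119.2 CPM. Hydrogel wounds thus held a narrower range over time than controls. The difference was 3.11 ± 0.26 between days 7 and 1 (adjusted p = 4.3e-05) and 1.63 ± 0.25 between days 14 and 1 (adjusted p = 0.0015). Sphk1, a kinase that makes a signalling lipid, differed by 5.08 ± 0.48 between days 7 and 1, and Cish, a feedback inhibitor of cytokine signalling, by 4.96 ± 0.49 (adjusted p = 0.00014 and 0.00015). Both were below controls at day 1 and above them at day 7. Gadd45g, a stress-induced gene, was at 296.9 to 493.1 CPM in day 1 controls against 49.5 to 61.2 CPM with hydrogel and differed by 2.99 ± 0.3 (adjusted p = 0.00015). Of 17 immediate early genes, 8 rose from day 1 to day 7 (median 1.56, 7 to 10 without single libraries, 1 with the muscle and adipocyte scores) and 0 fell. Among all genes, 5.85% rose and 7.08% fell. Egr1 and Myc, transcription factors induced by growth signals, differed by 1.96 ± 0.28 and 3.34 ± 0.49 (adjusted p = 0.0014 for each).

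Rian, Castor2, Hip1 and Fgd2 were also among those 12, and fell in the effect after day 1. Rian, an imprinted non-coding RNA (chromosome 12, 109603819 to 109661716), stood at 7.54, 9.1 and 6.46 CPM in day 1 controls against 19.8, 12.15 and 17.3 CPM with hydrogel, and at 118.9, 74.1 and 80.1 CPM in day 14 controls against 18.4, 16.8 and 16.7 CPM. The difference between days 14 and 1, where hydrogel wounds lay near their day 1 level, was -3.48 ± 0.3 (adjusted p = 8.4e-05) and passed in every alternative. Castor2, a regulator of amino acid sensing, and Hip1, an endocytic adaptor, differed by -3.23 ± 0.32 and -2.46 ± 0.27 between days 14 and 1 (adjusted p = 0.00014 and 0.00029). Fgd2, an activator of a small GTPase in antigen-presenting cells, was above controls at days 1 and 14 and below at day 7, with differences of -3.95 ± 0.41 and 2.95 ± 0.39 (adjusted p = 0.00015 and 0.003).

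Fewer genes had a higher than a lower effect at day 14 compared with day 1, at 2.67% and 7.81% of all genes tested. Of 24 genes of the upper epidermis 6 were higher, 1 in limma-voom with group weights and 0 with days 1 and 14 alone or with day 7 summed. Adh6b, an alcohol dehydrogenase, stood at 0.518 to 1.11 CPM in day 1 hydrogel wounds and at 11.4, 80.9 and 133 CPM at day 14, against 0.116 to 5.04 CPM in day 14 controls (difference 6.95 ± 1.55, adjusted p = 0.01). Krt32, a hair cuticle keratin, differed by 5.32 ± 1.23, and Acaa1b, a peroxisomal thiolase with a near-identical copy, by 5.3 ± 1.37 (adjusted p = 0.013 and 0.023). Acaa1b stood at 1074 CPM in control day 1 replicate 1, against 61.3 and 18.3 CPM in the others, and its call was lost with that library and control day 14 replicate 1 left out. Dapl1, an epithelial differentiation gene, and Flg, the barrier protein filaggrin, differed by 5.16 ± 0.97 and 5.12 ± 1.11 (adjusted p = 0.0043 and 0.0088). Calls for Adh6b, Krt32, Acaa1b and Flg were lost with day 7 summed, with days 1 and 14 alone and in limma-voom with group weights. Acaa1b was lost in 7 of 28 alternatives in all, and the Dapl1 call was lost in limma-voom with group weights. Fbp1, an enzyme of gluconeogenesis, was at 28.2, 41.6 and 50 CPM in day 14 hydrogel wounds and at or under 5.92 CPM in every other wound library, a difference of 4.68 ± 0.67 (adjusted p = 0.00099). S100a3, a calcium-binding protein of the hair cuticle, stood at 101.3, 300.7 and 416.9 CPM in day 14 hydrogel wounds, 0.696, 6.51 and 19.6 CPM in their controls and 2.24 CPM or less at day 1, with a difference of 7.79 ± 1.46 (adjusted p = 0.0041). It was 1 of 2 hair follicle genes past of 23 tested (median 2.58), beside 2.67% of all genes. The count was 1 without control day 1 replicate 2 or 3 and 4 without control day 14 replicate 3. None of the 23 passed in limma-voom with group weights or with the stricter filter (median 0.49). Summed hair follicle genes took 5191 to 9804 CPM in day 14 hydrogel wounds, 16.3, 857 and 2015 in day 14 controls and 7.96 to 94.5 in all earlier wounds. Slc30a1, a zinc exporter, and Mt4, the metallothionein of stratified epithelium, differed by 3.48 ± 0.7 and 3.96 ± 0.81 (adjusted p = 0.0057 and 0.0065), whereas the general metallothionein Mt2 did not pass (0.94 ± 0.51, adjusted p = 0.25). The Slc30a1 call was lost with days 1 and 14 alone and the Mt4 call in limma-voom with group weights.

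**Figure D5:**
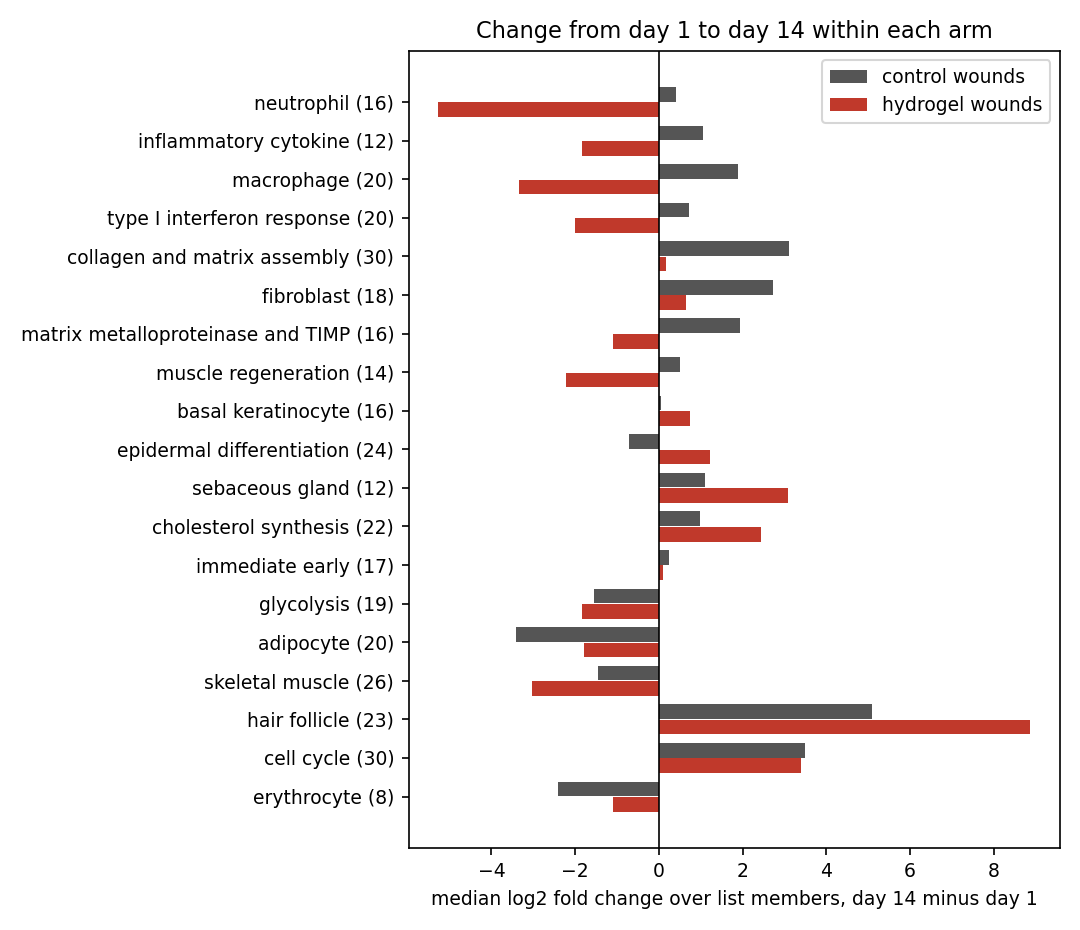
Median log2 change from day 1 to day 14 within control wounds (grey) and hydrogel wounds (red) over the tested members of 19 gene lists. Collagen genes rose by 3.12 in controls and changed by 0.17 with hydrogel, neutrophil genes changed by 0.42 and -5.27, and cell cycle genes changed by 3.48 and 3.4.

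Prg4, the joint and tissue lubricant lubricin, differed by -7.28 ± 1.78 between days 14 and 1 (adjusted p = 0.017). Its day 14 controls ran from 3.48 to 524.9 CPM, and the call was lost in 7 alternatives: without control day 14 replicate 1, the highest of them, without hydrogel day 14 replicate 2 or 3, with no filter, with day 7 summed, with days 1 and 14 alone and in limma-voom with group weights. Gpx3, an extracellular glutathione peroxidase, and Hmox1, the haem-degrading enzyme induced by oxidative stress, fell in the effect by -4.04 ± 0.75 and -3.61 ± 0.7 (adjusted p = 0.0038 and 0.0049). They were the 2 lower genes of 20 in oxidative stress defence, where 1 was higher and the median was -0.12. Among all genes tested, 7.81% were lower and 2.67% higher. Hmox1 stood at 11.4 to 17.05 CPM in day 14 hydrogel wounds and at 44.8 to 250.4 CPM in every other library. Of 22 endothelial genes, 4 fell from day 1 to day 14 (median -1.25), 1 with day 7 summed or with days 1 and 14 alone, 2 in limma-voom with group weights and 13 with the muscle and fat scores. Omitting control day 1 replicate 1 gave 9 and omitting hydrogel day 1 replicate 2 gave 7, whereas 2 passed when control day 1 replicate 2 or either of the hydrogel day 14 replicates 2 and 3 was left out. Aplnr, the apelin receptor of growing vessels, differed by -5.16 ± 0.81 between days 7 and 1 (adjusted p = 0.0021) and Angpt2, a vessel-destabilising factor, by -2.51 ± 0.51 between days 14 and 1 (adjusted p = 0.0063, lost with day 7 summed and with days 1 and 14 alone), whereas Kdr, the main receptor for vascular endothelial growth factor, did not pass (0.25 ± 0.53, adjusted p = 0.8). Cd3e, a subunit of the T cell receptor complex, was at 1.37 to 2.04 CPM in day 1 controls and at 1.18 CPM or less elsewhere, with a difference of 4.33 ± 0.81 between days 7 and 1 (adjusted p = 0.0047). Of 18 T and NK cell genes 2 were higher at day 7 than at day 1 and 1 was lower, with 8 of 18 differences above 0 and a median of -0.19. The shares over all genes were 5.85% higher and 7.08% lower.

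In some lists few genes or none passed. Of 38 lists, 5 had no member past in the interaction test over the 3 days: cell cycle (30 genes tested), erythrocyte (8), nuclear-encoded respiratory chain (21), cytosolic ribosome (20) and B and plasma cell (4). Between days 7 and 1 alone, 1 cell cycle gene was lower (Birc5, a mitotic and survival protein, -2.31 ± 0.68, adjusted p = 0.037) and 1 respiratory chain gene higher (Cox5a, a subunit of cytochrome c oxidase, 1.08 ± 0.33, adjusted p = 0.045), both named after their values were seen. The Birc5 call was lost in 14 of 28 alternatives and the Cox5a call in 17. Over all genes, 7.08% were lower and 5.85% higher between days 7 and 1. Cell cycle genes were higher with hydrogel at each day, by medians of 1.56, 0.87 and 1.53. Top2a, the topoisomerase of dividing cells, stood above controls at every day, at 8.15 to 31.8 against 3.19 to 5.51 CPM at day 1 and at 244.7 to 308.8 against 13.5 to 164.2 CPM at day 14. Its differences were -0.76 ± 0.83 between days 7 and 1 and -0.51 ± 0.83 between days 14 and 1 (adjusted p = 0.59 and 0.74). Erythrocyte genes were lower with hydrogel at each day, by medians of -2.94, -3.15 and -1.29. Hba-a1, an alpha-globin gene with a near-identical copy, lay below controls at every day, with differences of -0.07 ± 0.71 and 0.98 ± 0.71 (adjusted p = 0.96 and 0.39). These standard errors leave room for differences of more than 1 on the log2 scale, so a miss of the threshold does not show that the effect was constant. Of 23 panel genes, 14 passed at least 1 of the 4 tests and 9 passed none.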

How the data were processed

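RNA was sequenced from 18 mouse wound libraries, 6 groups of 3. The deposited files hold whole read-pair counts per gene symbol, which the authors made with featureCounts per the file headers (read pairs over exons, GENCODE M25 annotation, no strand option). Per the submitters' processing notes, the tools were Trim Galore 0.6.10, FastQC 0.11.9, HISAT2 2.2.1, SAMtools 1.9 and featureCounts 2.0.6, on mm10. Which alignments were kept beforehand is not given in the sources used here. Without strand, reads of a gene and its antisense partner cannot be told apart, and near-identical copies can share or lose reads.

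Counts were analysed in R 4.3.3 with edgeR 4.0.16 (TMM scaling, low-count filter with a minimum count of 10 and a total of 15, quasi-likelihood fit over all 6 groups, 12 residual degrees of freedom). Each contrast subtracts the hydrogel-minus-control effect of 1 day from that of another, with Benjamini-Hochberg adjustment over 17592 genes and a threshold of 0.05. Log2 levels per library, used for the principal components and the covariate scores, have a prior count of 2. Effects and differences between days are the log2 values of the fit, without that prior count. Levels are CPM and carry no length correction, so they are compared within a gene only. CPM of single genes use library totals after TMM scaling, and summed CPM of gene lists use unscaled totals. The fit was also run on simulated counts. These had 1 spread per gene for all groups, so they cannot show how the fit behaves where groups differ in spread, as here. Alternatives used DESeq2 1.42.0, limma 3.58.1 (voom), other filters and scaling, left-out or summed libraries, a replicate block and covariate scores.

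Named genes are, in order, up to 12 by lowest adjusted p over the 3 days, up to 6 per direction by size for each difference (all 4 group means at least 0.5 CPM, highest at least 5 CPM), up to 4 per gene list and a panel of 23 genes. The text stops early in some lists. The members and lists were chosen with earlier results of these data known. Replicate numbers were not taken to pair the libraries, since that would need every pair over 0.1: same-numbered libraries correlated at -0.02 to 0.37, with 4 of 9 pairs over 0.1.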

Additional observations from a re-analysis of the deposited data

Results flagged for a closer look

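The hydrogel effect differed between days, by the interaction test itself, for 2785 genes over the 3 days, 2275 between days 7 and 1, 302 between days 14 and 7 and 1844 between days 14 and 1 (edgeR, adjusted p under 0.05). The genes named in the results that passed are given here once more by the difference in which each was picked, with the log2 difference of effects. Day 7 controls, on which each difference involving day 7 rests, differed by little more than counting noise. They also enter the spread used to test day 14 minus day 1, where 408 of the 1844 genes passed with days 1 and 14 alone.

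Between days 7 and 1 the effect was higher at day 7 for Sdc4 (3.11), Sphk1 (5.08), Gadd45g (2.99), Cish (4.96), Pnpla5 (8.8), Serpina3b (8.29), Serpina3j (8.07) and Aloxe3 (7.96). The same direction held for Scd3 (7.8), Fgfbp1 (6.73), Acsbg1 (7.25), Cd3e (4.33), Krt14 (4.52), Casp14 (6.29), Pmel (7.34) and Sqle (4.54). It held also for Hmgcs1 (3.51), Egr1 (1.96), Myc (3.34) and Cox5a (1.08). Between days 7 and 1 the effect was lower at day 7 for Fgd2 (-3.95), Ms4a4c (-9.1), Saa1 (-8.22), Saa2 (-7.91), Wfdc21 (-5.88), Mfap4 (-3.32), Aplnr (-5.16) and Irf7 (-4.28). The same direction held for Birc5 (-2.31).

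Between days 14 and 7 the effect was higher at day 14 for Lep (7.82), Adrb3 (7.69), Thrsp (6.68), Lgals12 (5.9), Plin1 (5.54) and Fbp1 (5.24). Between days 14 and 7 the effect was lower at day 14 for Fcgbp (-6.12), Igfbp3 (-5.91), Pdk4 (-5.28), Cxcl1 (-5.17), Slc2a1 (-2.09) and Hk2 (-3.07).

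Between days 14 and 1 the effect was higher at day 14 for Adh6b (6.95), Krt32 (5.32), Acaa1b (5.3), Dapl1 (5.16), Flg (5.12), S100a3 (7.79), Slc30a1 (3.48) and Mt4 (3.96). Between days 14 and 1 the effect was lower at day 14 for Rian (-3.48), Loxl3 (-3.98), Col8a1 (-5.33), Castor2 (-3.23), Oas2 (-4.7), Hip1 (-2.46), Saa3 (-11.92) and Csf3r (-8.14). The same direction held for Slfn4 (-8.02), Ms4a7 (-7.37), Prg4 (-7.28), Cxcl2 (-7.48), Il33 (-5.41), Il1b (-5.77), Fcgr1 (-6.99) and Cd14 (-4.87). It held also for Ccl8 (-7.17), Oas3 (-6.52), Oasl2 (-4.41), Oasl1 (-4.08), Col1a1 (-4.84), Lum (-5.51), Loxl2 (-3.07) and Cthrc1 (-5.7). Further genes with it were Mmp13 (-7.4), Timp1 (-4.88), Angpt2 (-2.51), Slpi (-5.28), Tnnc1 (-5.97), Mymx (-5.93), Mymk (-6.95) and Gpx3 (-4.04). Last came Hmox1 (-3.61), Col3a1 (-6.16), Adgre1 (-5.52) and Csf1r (-4.27).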

How the results depend on the processing

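Counts of genes past 0.05 are given in the order over 3 days, day 7 minus day 1, day 14 minus day 7 and day 14 minus day 1, against 2785, 2275, 302 and 1844 as reported. DESeq2 gave 4664, 3334, 1453 and 3005, and limma-voom with group weights 1785, 2166, 1803 and 607. With day 7 libraries summed per group, each day 7 group holds 1 library and adds no replicates. The counts were then 26, 0, 0 and 495. Without control day 1 replicate 1 and control day 14 replicate 1 together they were 6720, 6312, 3184 and 2865. Skeletal muscle and adipocyte scores as covariates gave 3512, 631, 196 and 4001. With only the 4 groups compared, the differences gave 2423, 3034 and 408. Leaving out 1 library at a time gave 1622 to 5285, 1306 to 4725, 66 to 1820 and 917 to 3005. The cause of these shifts was not tested. RLE scaling (2749, 2237, 306 and 1874) and the stricter filter of 1 CPM in 9 libraries (2510, 2033, 231 and 1705) moved each count by less than 1.5 times, as did no filter (1897, 1525, 225 and 1315). With the replicate number as a block, though the numbers were not taken to pair the libraries, the counts were 2787, 2530, 232 and 1866, and 7 of 9 comparisons were highest with the library's own number. Of 94 named genes, each judged on its difference of lowest p, 85 passed as reported. Of genes that passed as reported or in the alternative, 0 reversed direction. Krt6a (-2.37 to 1.26), Krt10 (-0.26 to 3.95) and Myh4 (-3.35 to 1.4) did not pass as reported, and their values changed sign across alternatives. Summing day 7 lost 49 calls, the covariates 22, limma-voom 17, the 4 groups alone 11, no filter 10 and the block 3 (Acaa1b, Pdk4 and Cox5a). Low levels limit the precision of genes under about 1 CPM.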
